A study of Homo sapiens with 6 samples.

Results

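The collagen chains are the genes whose symbol has the form COL, a number, A and a number. Such a symbol stood alone on a probe set for 43 of the 18417 genes measured, and the chains were compared in H358, an established epithelial line from a human non-small cell lung cancer. Cells that stably expressed TwistER (3 arrays) were set against cells that stably expressed green fluorescent protein (GFP, 3 arrays). Both lines received 100 nM 4-hydroxytamoxifen (4OHT) for 12 days. TwistER is the Twist transcription factor fused to an estrogen receptor domain, and 4OHT switches the fusion on. The submitters' titles place the TwistER arrays after and the GFP arrays before epithelial-mesenchymal transition, the change of epithelial cells toward a fibroblast-like state. Both lines carry an inserted gene, and the labels do not say whether either was grown from 1 clone. No TwistER cells kept without 4OHT were among the arrays, so switching on TwistER and carrying the construct cannot be told apart. The chains fall into 11 fibrillar, 10 fibril-associated (FACIT), 6 basement membrane and 16 other chains. COL17A1 was not analysed here. COL11A2 was the only chain with several probe sets (3), and the brightest was used.

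Collagens are the main structural proteins of the extracellular matrix. Each molecule is built from alpha chains that wind around each other into a helix, either copies of the same chain or partner chains from several genes. Fibrillar collagens assemble into the banded fibrils of connective tissue, FACIT collagens sit on the surface of those fibrils, and type IV collagens form the sheet of the basement membrane on which epithelial cells rest. Mesenchymal cells are the usual producers of fibrillar collagen, whereas basement membrane chains are made by epithelial and other cells.

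Values are log2 expression, so that a difference of 1 is a doubling, and every difference is TwistER minus GFP. On an array the level of a probe set also depends on its probes, so levels were compared between lines for the same chain and never between chains. A chain was said to rise or fall when limma, fitted over all 18417 genes, gave a Benjamini-Hochberg adjusted p under 0.05. By that rule 8 of the 43 chains (18.6%) rose and 0 fell. Over all genes 4.72% rose and 4.11% fell. Leaving out TwistER replicate 1, 2 or 3 or GFP replicate 2 left 5 chains that rose, and leaving out GFP replicate 3 left 7; with 1 array fewer, 2.57% to 6.97% of all genes rose. The median difference was 0.09 over the collagen chains and 0.01 over all genes. The rises were unequal in size: 4 chains rose more than 3-fold (COL12A1, COL14A1, COL3A1 and COL8A1), and the other 4 (COL6A1, COL5A2, COL6A2 and COL1A1) rose less than 2-fold. The remaining 35 chains had differences between -0.20 and 0.33 and did not pass. Their 95% intervals all lay between -0.61 (COL28A1) and 0.59 (COL19A1) on the log2 scale, so that the highest bound was a 1.504-fold rise.

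By class, 3 of 11 fibrillar chains rose (median difference 0.23), 2 of 10 FACIT chains (0.03), 0 of 6 basement membrane chains (0.09) and 3 of 16 other chains (0.08). The share over all genes was 4.72%, so 0 of 6 does not set the basement membrane chains apart from other genes. Without TwistER replicate 1, 2 or 3 or GFP replicate 2, COL3A1 was the 1 fibrillar chain that rose, and COL6A2 dropped out of the other chains. The chains that rose in the last class belong to types VI and VIII. The 3 TwistER values all lay above the 3 GFP values in 5 fibrillar, 3 FACIT, 0 basement membrane and 3 other chains, 11 of 43 in all (25.6%), and in 13.9% of all genes. The reverse order, with all TwistER values below all GFP values, was seen in 0 of the 43 chains and in 14.5% of all genes. The classes differ in size and were compared by counts, and no class was tested against another.

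**Figure D1:**
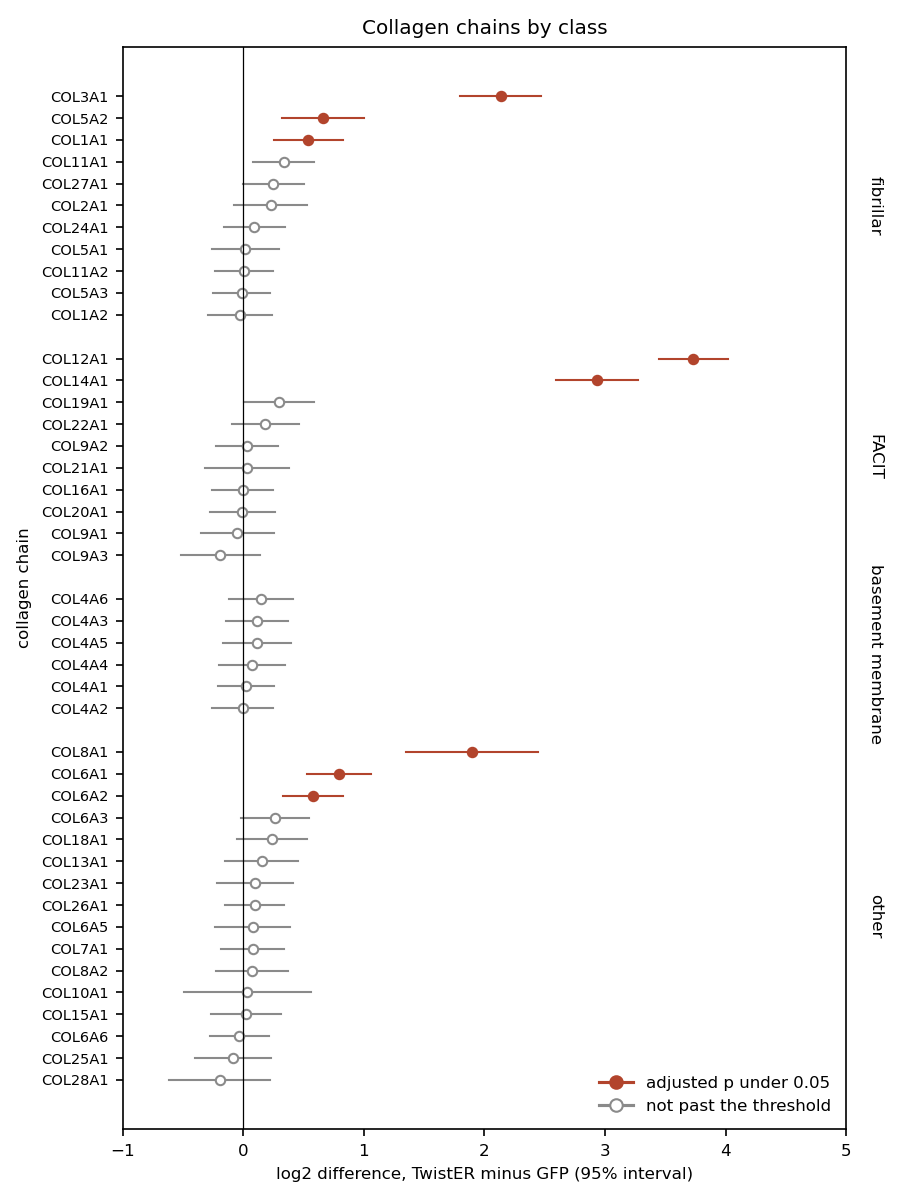
Log2 difference (TwistER minus GFP) of each of the 43 collagen chains with its 95% interval from limma, ordered within the fibrillar, FACIT, basement membrane and other classes; 3 arrays per line. Filled points mark the 8 chains with an adjusted p under 0.05: COL12A1 at 3.73 and COL14A1 at 2.93 stand far to the right, and all 6 basement membrane chains lie close to 0.

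Arrays of the same line correlated at 0.982 to 0.996 over all genes, and GFP replicate 1 stood apart, at 0.982 with each of the other GFP arrays, which correlated at 0.996 with each other. Without it the same 8 chains rose. Counts of cell type markers stand beside 4.72% of all genes that rose and 4.11% that fell. Of 7 epithelial cell markers 0 rose and 5 fell, with a list mean of 7.0 to 7.03 on the TwistER arrays and 8.73 to 9.33 on the GFP arrays. CDH1, E-cadherin, averaged 5.09 ± 0.19 in TwistER and 10.09 ± 0.48 in GFP (SD, n = 3 each). VIM, the intermediate filament of mesenchymal cells, had a difference of 0.59 ± 0.14 (limma adjusted p = 0.0332), a call that was lost when any TwistER array, GFP replicate 2 or GFP replicate 3 was left out (highest limma adjusted p 0.144). VIM averaged 11.4 in TwistER and 10.8 in GFP, so its signal lay above the upper quartile of all values (7.18) in both lines. Fibroblasts make several of these collagens and could be present in a culture. Of 8 fibroblast markers other than collagens 2 rose (FBLN1 and PDGFRA) and 1 fell (LUM), with a list mean of 4.60 to 4.75 on the TwistER arrays and 4.49 to 4.59 on the GFP arrays. FBLN1 rose 3.60-fold (1.85 ± 0.13, SE), PDGFRA rose 2.01-fold (1.01 ± 0.13) and LUM fell 3.09-fold. PDGFRB, FAP, PDPN, THY1 and decorin (DCN) did not pass. DCN read 2.37 ± 0.14 in TwistER and 2.37 ± 0.10 in GFP (SD, n = 3 each), under the lower quartile of all values. THY1 read 4.25 ± 0.06 in TwistER and 4.34 ± 0.09 in GFP. Among endothelial markers 2 of 4 rose (KDR and PECAM1), with a list mean of 4.84 to 4.86 on the TwistER arrays and 4.19 to 4.32 on the GFP arrays, and among leukocyte markers 0 of 3 rose or fell, with a list mean of 3.55 to 3.67 on the TwistER arrays and 3.28 to 3.42 on the GFP arrays. The part of other cell types in the collagen values was not tested, and in bulk RNA more cells of a type cannot be told apart from more RNA per cell.

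Stretches of promoter sequence are shown, for the chain with the largest rise (COL12A1), for the only other riser with an entry in the promoter table (COL6A2), and for COL4A1, which shares its promoter with the neighbouring COL4A2 and whose level did not pass the test. Each runs 5′ to 3′ from 250 bases before to 50 bases after the RefSeq gene start (GRCh38.p14). The COL12A1 window is chr6:75206004-75206303 on the minus strand, the COL6A2 window chr21:46097862-46098161 on the plus strand, and the COL4A1 window chr13:110307108-110307407 on the minus strand. Capitals mark E-boxes (CANNTG, the core to which helix-loop-helix factors such as Twist bind), the TATA box (motif TATAAA) and the CCAAT box, searched on both strands.
COL12A1: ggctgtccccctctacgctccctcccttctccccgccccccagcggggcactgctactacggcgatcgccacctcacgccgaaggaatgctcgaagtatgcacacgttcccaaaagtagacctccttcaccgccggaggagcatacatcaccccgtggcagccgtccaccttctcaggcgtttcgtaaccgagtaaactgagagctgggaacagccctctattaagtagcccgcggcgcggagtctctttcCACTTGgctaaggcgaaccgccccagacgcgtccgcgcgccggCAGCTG
COL6A2: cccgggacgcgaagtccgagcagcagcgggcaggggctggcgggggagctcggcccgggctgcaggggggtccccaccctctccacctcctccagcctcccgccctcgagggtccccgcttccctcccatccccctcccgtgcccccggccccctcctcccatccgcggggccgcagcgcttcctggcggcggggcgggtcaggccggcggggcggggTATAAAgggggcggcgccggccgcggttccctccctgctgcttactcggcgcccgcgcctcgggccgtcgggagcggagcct
COL4A1: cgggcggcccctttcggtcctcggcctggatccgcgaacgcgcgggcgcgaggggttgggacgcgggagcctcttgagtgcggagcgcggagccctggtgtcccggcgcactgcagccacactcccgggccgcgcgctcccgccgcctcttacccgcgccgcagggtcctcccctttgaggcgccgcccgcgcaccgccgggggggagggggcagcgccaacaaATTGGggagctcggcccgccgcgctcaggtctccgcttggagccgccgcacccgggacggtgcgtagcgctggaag

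The COL12A1 window held 2 E-boxes, CACTTG and CAGCTG, both after the gene start. Neither has the form CATCTG or CACCTG, which are counted below. The COL6A2 and COL4A1 windows held 0 E-boxes. The COL6A2 window held a TATA box that begins 32 bases before the start, and the COL4A1 window a CCAAT box on the opposite strand (ATTGG). Windows were found for 31 of the 43 chains, 43 windows in all since some genes have several starts, each counted on its own. Only 2 of the 31 chains rose, so the shares describe mostly chains that did not pass. An E-box was present in 24 of the 43 windows (55.8%) and in 68.7% of all 35116 promoter windows of that length. The form CACCTG, bound by the ZEB and SNAI repressors, was present in 5 of the 43 windows (11.6%) and in 20.6% of all windows, and CATCTG in 4 (9.3%) and in 14.7% of all windows; both forms also count as E-boxes. The TATA box was present in 7 (16.3%) and in 11.5% of all windows, and the CCAAT box in 13 (30.2%) and in 34.6%. These are matches of letters and not measured binding sites.

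Among fibrillar chains, COL3A1, the chain of type III collagen of loose and healing tissue, showed the largest rise. It read 7.08, 6.99 and 7.01 on the TwistER arrays, against 4.58, 4.98 and 5.12 on the GFP arrays. All TwistER values were alike and far above the GFP values, of which replicate 1 was the lowest. The difference was 2.13 ± 0.15 (SE), a 4.39-fold rise, with a limma adjusted p of 7.60e-05. COL5A2, a chain of type V collagen that co-assembles with types I and III, read 4.11, 4.44 and 4.10 on the TwistER arrays, against 3.32, 3.64 and 3.71 on the GFP arrays. The lines did not overlap, but the GFP mean of 3.55 lay under the lower quartile of all values (4.19), near the dim end of the scale. COL5A2 rose 1.58-fold (0.66 ± 0.15, limma adjusted p = 0.0293).

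COL1A1 encodes the alpha-1 chain of type I collagen, the main protein of bone and tendon. It read 6.35, 6.65 and 6.49 on the TwistER arrays, against 5.81, 6.06 and 6.0 on the GFP arrays, again without overlap, and rose 1.45-fold (0.54 ± 0.13, limma adjusted p = 0.0323). COL1A1 and COL5A2 had the highest adjusted p of the 8. COL1A1 no longer passed when any TwistER array, GFP replicate 2 or GFP replicate 3 was left out (highest limma adjusted p 0.142). COL5A2 lost it without any of the TwistER arrays or without GFP replicate 2 (highest limma adjusted p 0.123).

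The other fibrillar chains did not pass. COL11A1, a type XI chain of cartilage fibrils, read 4.58, 4.37 and 4.51 on the TwistER arrays, against 4.15, 4.23 and 4.08 on the GFP arrays. Its values did not overlap, yet the difference of 0.33 ± 0.11 did not pass in limma (adjusted p = 0.112). COL27A1 likewise did not overlap and had a difference of 0.25 ± 0.11 (limma adjusted p = 0.233). COL1A2, the partner of COL1A1 in type I collagen, read 4.69, 4.80 and 4.72 on the TwistER arrays, against 4.92, 4.61 and 4.75 on the GFP arrays. Its lines overlapped, with a difference of -0.03 and a 95% interval of -0.30 to 0.24. COL5A1 and COL5A3, the other type V chains, had differences of 0.02 (-0.26 to 0.29) and -0.01 (-0.25 to 0.22). COL2A1 of cartilage, COL24A1 and COL11A2 had differences of 0.23, 0.09 and 0.01. The dimmer probe sets of COL11A2, which hold identical values, gave -0.07.

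**Figure D2:**
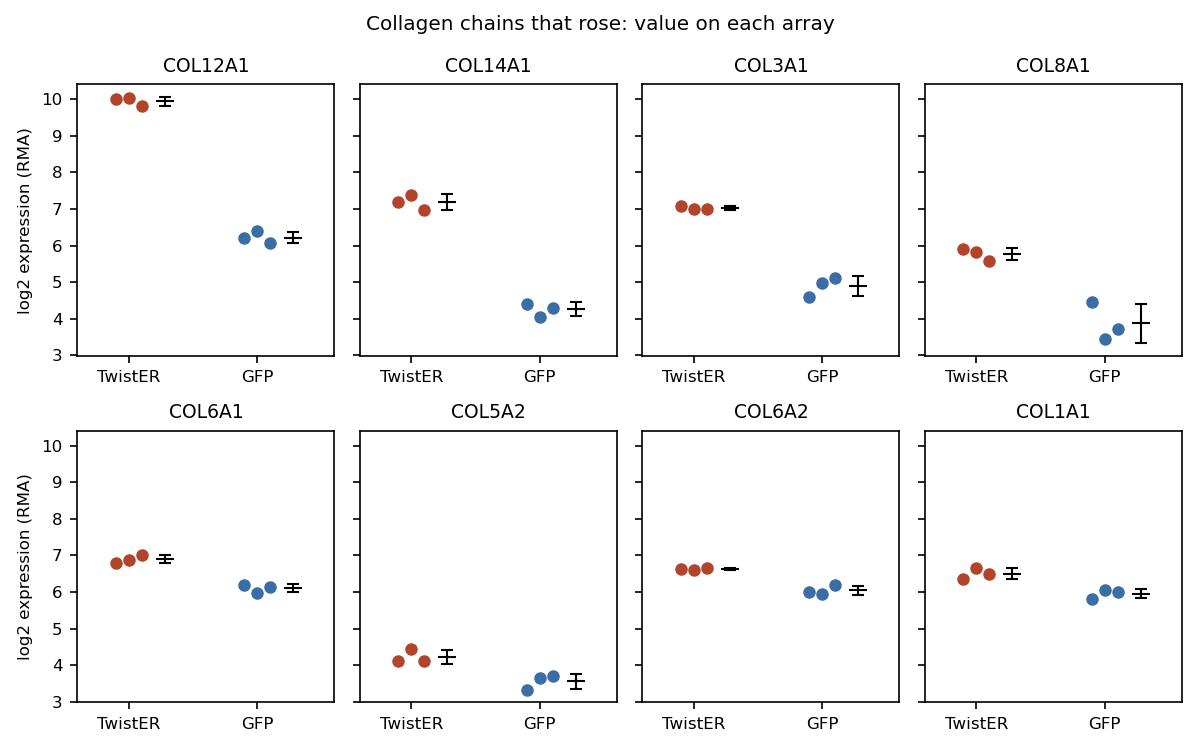
Log2 expression on each array for the 8 collagen chains that rose, TwistER arrays to the left and GFP arrays to the right in each panel, with the mean and SD (n = 3) beside the points. In every panel all TwistER values lie above all GFP values; the gap is widest for COL12A1 (9.95 in TwistER, 6.22 in GFP) and narrowest for COL1A1 (6.50 in TwistER, 5.96 in GFP).

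The FACIT class held the 2 largest rises of all collagens and 8 chains that did not pass. COL12A1, which coats type I fibrils and bears long chains of fibronectin-like domains, read 10.00, 10.04 and 9.81 on the TwistER arrays, against 6.20, 6.39 and 6.07 on the GFP arrays. Values within each line differed by far less than the lines did. The difference was 3.73 ± 0.13, a 13.3-fold rise with a 95% interval of 10.9 to 16.2-fold (limma adjusted p = 2.40e-06). It was the difference ranked 4 from the top of all 18417 genes. COL14A1, a close relative of COL12A1 with the same kind of domains, read 7.20, 7.40 and 6.97 on the TwistER arrays, against 4.41, 4.04 and 4.30 on the GFP arrays. It rose 7.65-fold (2.93 ± 0.15, limma adjusted p = 1.27e-05) and ranked 11 of all genes. Both calls held without any single array, with differences of 3.66 to 3.82 for COL12A1 and 2.83 to 3.04 for COL14A1.

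No other FACIT chain passed. COL19A1 read 3.97, 4.05 and 4.20 on the TwistER arrays, against 3.80, 3.59 and 3.93 on the GFP arrays. Its lines did not overlap, and its difference was 0.30 ± 0.13 (limma adjusted p = 0.218). COL22A1, a collagen of tissue junctions, had a difference of 0.18. The chains of type IX, which binds cartilage fibrils, had differences of -0.05 for COL9A1, 0.03 for COL9A2 and -0.19 for COL9A3. COL21A1, COL16A1 and COL20A1 had differences of 0.03, -0.01 and -0.01. Both means of COL19A1 and COL9A1 lay under the lower quartile of all values.

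None of the 6 basement membrane chains passed, and the lines overlapped in each. Over all genes 4.72% rose and 4.11% fell, so the lack of calls among 6 chains was not read as a trait of the class. COL4A1, which with COL4A2 forms the type IV network of nearly every basement membrane, read 4.19, 4.24 and 4.32 on the TwistER arrays, against 4.26, 4.23 and 4.20 on the GFP arrays. COL4A2 read 4.96, 5.12 and 5.22 on the TwistER arrays, against 5.14, 5.10 and 5.07 on the GFP arrays. The differences were 0.02 (95% interval -0.21 to 0.26) for COL4A1 and -0.00 (-0.26 to 0.25) for COL4A2, so that the upper bounds were rises of 1.19-fold in both. COL4A3, COL4A4 and COL4A5, the chains of kidney and lung basement membranes, had differences of 0.11, 0.07 and 0.11. COL4A6, found in the epidermis and around smooth muscle, had the highest difference of the class at 0.15, with an interval of -0.12 to 0.41. Means of COL4A3, COL4A5 and COL4A6 lay under the lower quartile of all values (4.19) in both lines. Those of COL4A1 (4.25 in TwistER, 4.23 in GFP) and COL4A4 (4.33 and 4.26) lay just above it. The narrow interval of COL4A1 was therefore measured near the dim end of the scale.

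In the class of other chains, COL8A1 of the short-chain network of vessel walls and the cornea rose most. It read 5.90, 5.82 and 5.57 on the TwistER arrays, against 4.45, 3.44 and 3.72 on the GFP arrays. The GFP arrays were spread more widely than the TwistER arrays, with replicate 1 the highest, and the lines did not overlap. COL8A1 rose 3.72-fold (1.90 ± 0.24, limma adjusted p = 0.00168), and its GFP mean of 3.87 lay under the lower quartile of all values. Its partner COL8A2 had a difference of 0.07 (-0.23 to 0.37).

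Type VI collagen forms beaded filaments around cells, and its chains COL6A1 and COL6A2 both rose. COL6A1 read 6.80, 6.88 and 7.03 on the TwistER arrays, against 6.20, 5.98 and 6.15 on the GFP arrays, a 1.74-fold rise (0.80 ± 0.12, limma adjusted p = 0.00366). COL6A2 read 6.63, 6.60 and 6.65 on the TwistER arrays, against 6.01, 5.95 and 6.18 on the GFP arrays, a 1.49-fold rise (0.58 ± 0.11, limma adjusted p = 0.0125). The values of both chains were without overlap. COL6A1 kept its call without any single array, while COL6A2 lost it without any of the TwistER arrays or without GFP replicate 2 (highest limma adjusted p 0.0592). COL6A3, the large chain needed to complete the type VI molecule, read 5.23, 5.28 and 5.10 on the TwistER arrays, against 5.12, 4.91 and 4.79 on the GFP arrays. Its lines overlapped and its difference of 0.26 ± 0.12 did not pass in limma (adjusted p = 0.269), although it did pass when arrays were weighted (0.35, limma adjusted p = 0.0331). COL6A5 and COL6A6 had differences of 0.08 and -0.03, and both had means under the lower quartile.

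The other 9 chains of this class did not pass. COL18A1, the source of endostatin, read 5.91, 6.25 and 6.15 on the TwistER arrays, against 5.77, 5.85 and 5.98 on the GFP arrays, with overlap and a difference of 0.24 ± 0.13 (limma adjusted p = 0.339). COL15A1, its relative at basement membranes, had a difference of 0.02, and COL7A1, which anchors basement membranes to the tissue below, 0.08. The membrane-spanning collagens COL13A1, COL23A1 and COL25A1 had differences of 0.15, 0.10 and -0.09. COL10A1 of growth-plate cartilage had a difference of 0.03 with a 95% interval of -0.49 to 0.56, at 3.80 ± 0.43 in TwistER and 3.76 ± 0.30 in GFP (SD, n = 3 each). COL26A1 and COL28A1 had differences of 0.09 and -0.20.

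Partner chains of the same collagen type were then set against each other. For 13 pairs the gap between the chains was taken on each array. This removes an error that shifts both log2 values of an array equally, but not one that depends on brightness. Only the change of a gap between the lines was read, not its size. That change is the difference of a chain minus the difference of its partner, so it restates values given above and adds no independent evidence. The gaps of the lines did not overlap in 5 pairs, and an exact permutation test over the samples (2-sided) gave each of these the smallest p that 3 against 3 arrays allow, 0.1, or 0.26 adjusted over the 13 pairs. This permutation test can therefore not pass 0.05 for a gap, and no other test of the gaps was run. How often gaps between other genes fail to overlap was not counted, so the 5 pairs were not read as a result about partner chains. The gap of COL1A1 over COL1A2 was 1.66, 1.85 and 1.77 on the TwistER arrays, against 0.88, 1.45 and 1.25 on the GFP arrays, a change of 0.57 ± 0.18 (SE). COL8A1 gained 1.83 ± 0.42 over COL8A2 and COL6A1 gained 0.53 ± 0.15 over COL6A3. COL5A1 changed by -0.65 ± 0.09 relative to COL5A2, and COL11A1 by 0.33 ± 0.13 relative to COL11A2. Except for type XI, each of these pairs set a chain that rose against a partner that did not pass. The gap of COL6A1 over COL6A2 changed by 0.22 ± 0.09 and overlapped between the lines. The pairs of type IV chains kept close to their GFP gaps, at 0.03 ± 0.04 for COL4A1 and COL4A2, 0.04 ± 0.16 for COL4A3 and COL4A4, and -0.04 ± 0.13 for COL4A5 and COL4A6. The gaps within type IX changed by -0.08 to 0.23, and that of COL5A1 and COL5A3 by 0.03 ± 0.09. All of these overlapped.

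**Figure D3:**
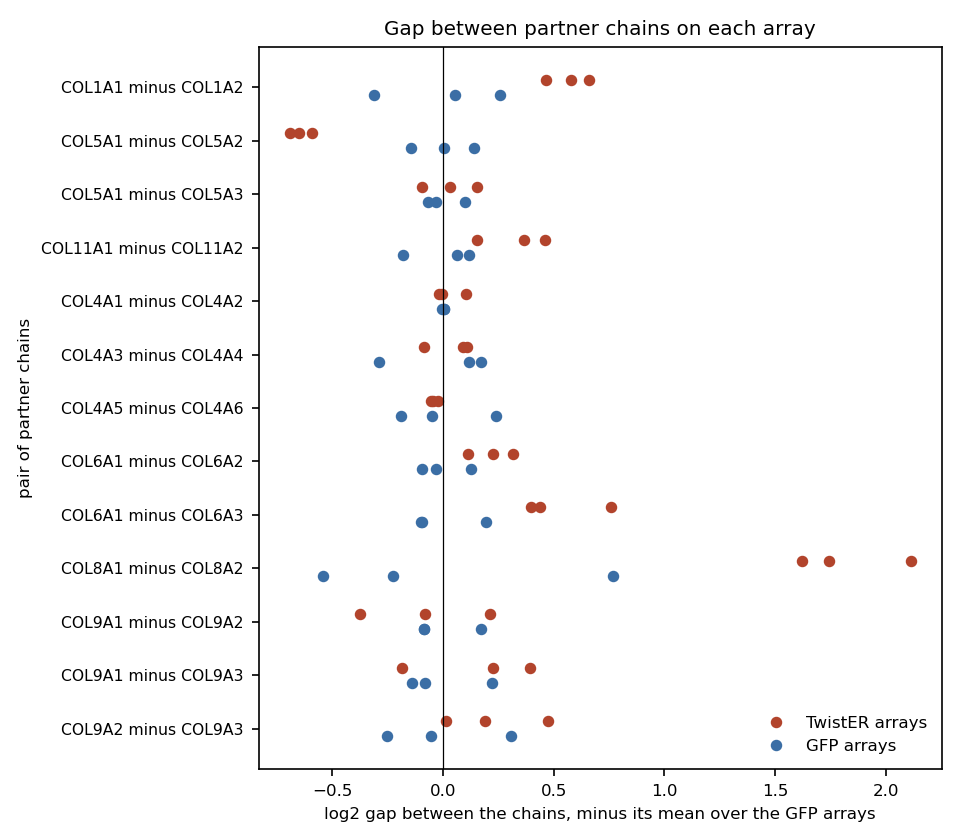
Log2 gap between partner chains on each array, drawn relative to the mean gap of the GFP arrays, for 13 pairs; TwistER arrays above and GFP arrays below within each row, 3 points each. The TwistER points lie apart from the GFP points for COL1A1 and COL1A2, COL5A1 and COL5A2, COL11A1 and COL11A2, COL6A1 and COL6A3, and COL8A1 and COL8A2, and mix with them in the other 8 pairs.

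Several of the chains are neighbours in the genome. Of 7 pairs that follow each other among protein-coding genes of RefSeq, 2 were pairs in which both chains rose, COL3A1 with COL5A2 on chromosome 2 and COL6A1 with COL6A2 on chromosome 21. In the other 5 neither chain passed. These were the head-to-head pairs of type IV chains on chromosomes 13, 2 and X, COL6A5 with COL6A6 on chromosome 3, and COL19A1 with COL9A1 on chromosome 6. The promoter windows of COL4A1 and COL4A2 share 226 bases. COL5A2 and COL6A2 lost their calls without TwistER replicate 1, 2 or 3 or GFP replicate 2, so neither pair then had both chains called. The share of neighbouring pairs called together was not counted over all genes. Neighbourhood was a description and was not tested.

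Genes that make, carry, bind or cut collagens were followed in 7 lists with 67 measured members. Of these 17 rose (25.4%) and 5 fell (7.46%), against 4.72% and 4.11% of all genes. The lists were chosen with earlier results of these data known, and the share over all genes includes dim genes. The contrast is therefore a description, was not tested and supports no conclusion. Among 16 genes of chain folding and hydroxylation 6 rose and 0 fell, with a median difference of 0.33; without TwistER replicates 1, 2 and 3 the rises numbered 3, 2 and 3. P4HA2, a catalytic subunit of prolyl 4-hydroxylase, averaged 9.46 ± 0.03 in TwistER and 8.08 ± 0.60 in GFP (SD, n = 3 each) and rose 2.60-fold, but lost the call without any of the TwistER arrays (highest limma adjusted p 0.0570). P3H1, a prolyl 3-hydroxylase, rose 2.11-fold (1.08 ± 0.17), and P4HA3, another subunit of prolyl 4-hydroxylase, 1.75-fold (0.81 ± 0.12). SERPINH1, the collagen chaperone HSP47, was picked out after its value was seen, as were the other genes here that stand outside the naming rule. It rose 1.41-fold (limma adjusted p = 0.0436), and GFP replicate 1 was the only array it could spare and still pass. Without TwistER replicates 1, 2 and 3 the counts of the whole set of lists were 11, 10 and 11 rises.

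Procollagen is too long for ordinary transport vesicles and leaves the endoplasmic reticulum through enlarged carriers. Of 8 genes of that step 3 rose (37.5%) and 1 fell (12.5%), against 4.72% and 4.11% of all genes. The median difference of the 8 was 0.36. SEC24D and SEC23A, coat proteins of the carriers, rose 2.67-fold (1.42 ± 0.12) and 2.03-fold (1.02 ± 0.11). MIA3, also called TANGO1, which loads procollagen, rose 1.45-fold (0.53 ± 0.11), and its partner MIA2 fell 1.40-fold. Neither MIA3 nor MIA2 passed when any TwistER array, GFP replicate 2 or GFP replicate 3 was left out, and for MIA2 the mean of its probe sets gave -0.17 (limma adjusted p = 0.504).

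Of 8 genes that remove the propeptides 2 rose (25%) and 0 fell (median 0.39), against 4.72% and 4.11% of all genes. PCOLCE2, an enhancer of the C-proteinase, averaged 8.82 ± 0.07 in TwistER and 7.62 ± 0.05 in GFP (SD, n = 3 each), a 2.30-fold rise, and TLL1, a proteinase of the tolloid family, rose 1.74-fold. Of the 5 cross-linking oxidases 3 rose and 0 fell (median 0.42), and without any TwistER array or without GFP replicate 3 LOX was the 1 that rose. LOX averaged 10.80 ± 0.06 in TwistER and 7.01 ± 0.22 in GFP (SD, n = 3 each) and rose 13.9-fold, close in size to COL12A1. LOXL2 rose 1.82-fold and LOXL1 1.34-fold, and both calls were at the threshold (limma adjusted p = 0.04999 and 0.0484). LOXL2 lost its call without any TwistER array or GFP replicate 3, and LOXL1 without any array except GFP replicate 1.

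Over all genes 4.72% rose and 4.11% fell. With so few members per list, the counts of receptors, binding partners and proteases were not read as results about those lists. Of 10 collagen receptors 1 rose (10%) and 2 fell (20%), with a median of 0.12. MRC2, which takes up collagen for breakdown, rose 2.55-fold (1.35 ± 0.22). ADGRG1, a receptor for type III collagen, fell 4.59-fold (-2.20 ± 0.26), and ITGA2, the integrin subunit that binds fibrillar collagen on epithelial cells, fell 2.35-fold (-1.23 ± 0.13). Of 12 fibril-binding proteins 2 rose and 1 fell (median 0.20). Fibronectin (FN1) rose 4.34-fold, the collagen-binding glycoprotein SPARC 2.98-fold, and lumican (LUM), which spaces fibrils, fell 3.09-fold. Of 8 collagen-degrading proteases 0 rose and 1 fell (median 0.05), the neutrophil collagenase MMP8, which was 3.05-fold lower, with a TwistER mean of 3.82 that lay under the lower quartile of all values. The interstitial collagenase MMP1 had a difference of -0.20 (limma adjusted p = 0.352).

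**Figure D4:**
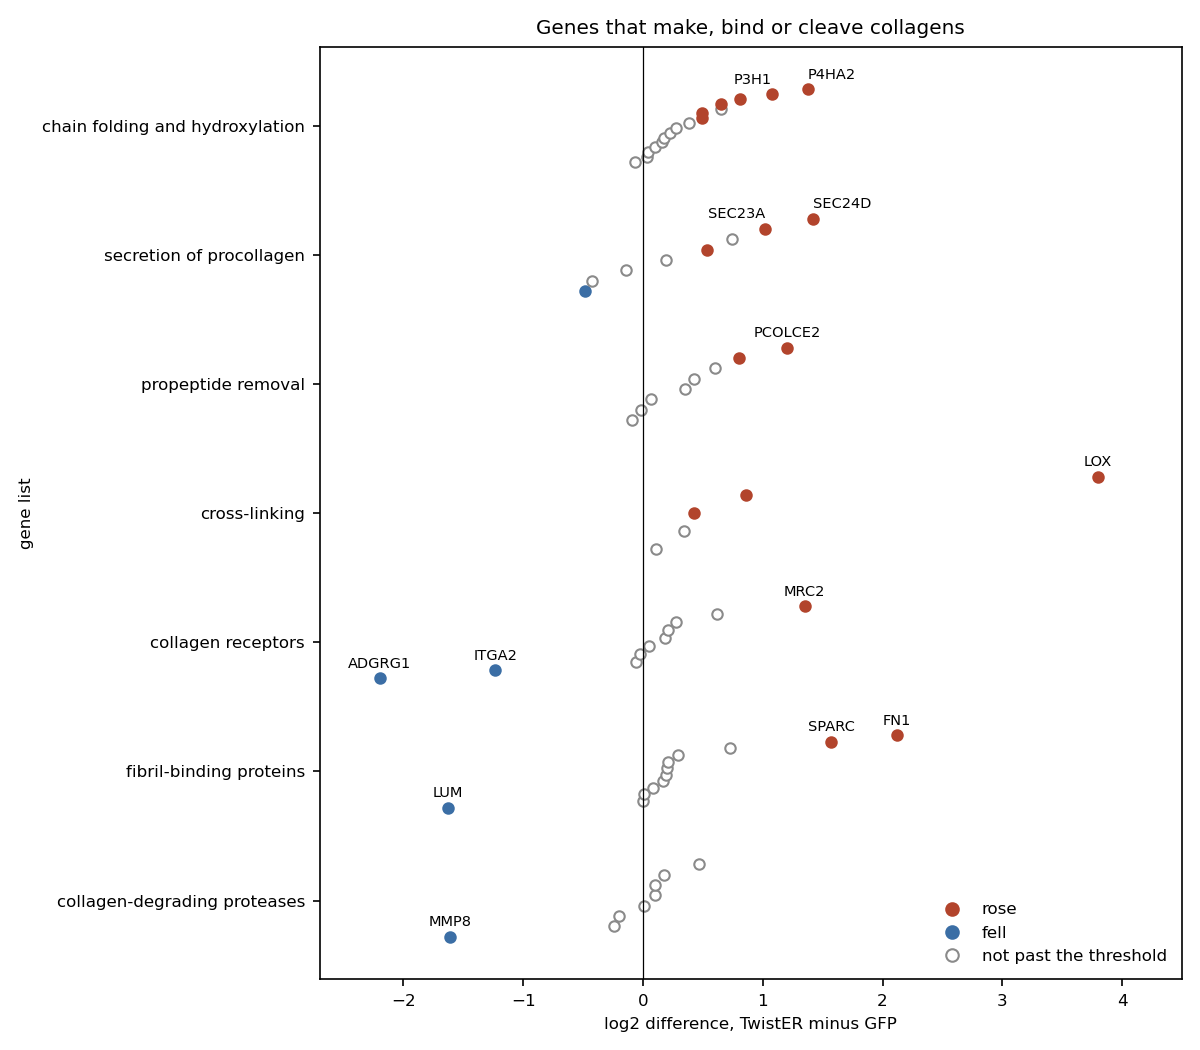
Log2 difference (TwistER minus GFP) of the 67 measured genes in 7 lists of collagen production, binding and breakdown; each point is 1 gene, filled where the adjusted p was under 0.05, and genes past a 2-fold change are named. LOX lies farthest to the right at 3.80, and the receptors, binding proteins and proteases include ADGRG1 at -2.20, LUM at -1.63 and MMP8 at -1.61 on the left.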

How the data were processed

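Total RNA of 6 samples was hybridised to an Affymetrix gene array. The deposited values are log2 expression per probe set that the authors made with RMA, per the submitters' processing notes, which give neither version nor settings here. RMA equalises the distributions of the arrays, so a shift of all genes would not show. The titles call the arrays biological replicates without saying what was repeated. The p-values rest on the spread among the 3 arrays of each line, pooled over both lines and moderated over all genes. That spread may be technical.

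Of 33297 probe sets, 19460 had 1 gene symbol in the platform annotation. The brightest per gene gave 18417 genes, and no filter on brightness was applied. The 2-sided moderated test of limma 3.58.1 (R 4.3.3) compared the lines without covariates, with Benjamini-Hochberg adjustment over all genes. limma was tested on simulated data. Promoters came from RefSeq (GRCh38.p14). Named are all chains past the threshold or in a partner pair, the 5 nearest on either side of the threshold, and up to 3 members called per list. Members, classes and lists were chosen with earlier results of these data known. Closely related chains can share probes. The number of arrays limits the precision. Alternatives were other normalizations, brightness filters, probe set means, variance models, array weights, a replicate block, thresholds and leaving out each array. Tables used Python 3.11.15 and pandas 2.3.3.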

Additional observations from a re-analysis of the deposited data

How the results depend on the processing

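Over the alternatives, 5 to 9 collagen chains rose and 0 fell. The 8 chains kept a positive difference under every alternative in which they were tested, and COL12A1, COL14A1, COL3A1, COL8A1 and COL6A1 kept their calls without every single array. A second quantile normalization, median centring and cyclic loess each left the count at 8. At an adjusted p under 0.01, 5 chains rose, with 1 fibrillar chain, and 10 list members rose. Leaving out each array in turn gave 5 to 8 chains, 1 to 3 fibrillar chains, 2 FACIT chains, 2 to 3 other chains and 10 to 18 list members that rose, fibrillar medians of 0.14 (without TwistER replicate 3) to 0.31, FACIT medians of 0.028 to 0.11 and basement membrane medians of 0.033 to 0.11 (the FACIT 0.11 and the basement membrane 0.033 without GFP replicate 3). Among genes above the median brightness (14 chains tested) 6 rose, with medians of 0.39 (fibrillar), 1.46 (FACIT) and 0.17 (other), which support nothing since brightness over all 6 arrays let COL14A1 and COL3A1 pass through their TwistER values, and above the 25th percentile the basement membrane median was 0.024, and above the median brightness that class had no chain left. All genes that rose or fell numbered 1551 and 1717 with array weights, 472 and 335 at 0.01, and 473 to 1283 and 358 to 1490 without an array; the cause was not tested. Same-numbered arrays deviated together at correlations of 0.14, 0.02 and 0.16, and differently numbered arrays at -0.16 to 0.04. Replicate numbers 1 and 3 gave the highest of these values, so they do not settle whether the numbers mark pairs. The main fit took no pairs. With a replicate block 8 chains rose, and 16 list members rose and 4 fell. Dim signal limits COL4A3, COL4A5, COL4A6 and other chains under the lower quartile, and COL4A1 and COL4A4 lay just above it.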
